A study of Rattus norvegicus with 9 samples.

Results

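The state of the heat-stressed left ventricle was compared between rats that had been returned to the heat after losing their acclimation and rats that had been acclimated once, for a long time. The comparison rested on 2 of the 9 samples of the study: the reacclimated, heat-stressed group minus the 1 mo acclimated, heat-stressed group, over all 87 deposited array rows. Reacclimated, heat-stressed rats had spent 1 month at 34 °C, then 1 month of deacclimation at 24 °C, then 2 days at 34 °C, before heat stress at 41 °C for 2 h and a recovery of 1 h at 24 °C. The 1 mo acclimated, heat-stressed rats had spent 1 month at 34 °C before the same stress and recovery. Their unstressed counterparts, the reacclimated and the 1 mo acclimated groups, had the same histories without the 41 °C exposure. The other 5 groups were 2 d acclimated rats with and without stress, deacclimated rats, heat-stressed rats that were not acclimated, and untreated controls, against which all values were expressed as log2 ratios. The 2 d acclimated rats had spent 2 days at 34 °C. Deacclimated rats had spent 1 month at 34 °C and then 1 month at 24 °C. All heat-stressed groups had the same stress at 41 °C for 2 h and recovery of 1 h at 24 °C. Both compared groups thus shared the month at 34 °C, the stress and the recovery. They differed in the month at 24 °C, the second exposure of 2 days and, with these, the time since the start of the protocol. The labels give 3 pools of RNA and 6 animals per group and give no strain, sex or age.

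Heat acclimation is a slow adjustment of the body to a warm environment, which in rats also alters the heart. It is lost again in a cooler environment, and it has been described to return faster on a second exposure than it was first acquired. Acute heat stress sets off the heat shock response, in which chaperone genes are strongly induced. The comparison addressed whether hearts under heat stress are in the same state after a short reacclimation as after the first long acclimation.

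Each group was deposited as 1 value per row, so all differences are sizes without a p-value, and how much of them is spread between animals or arrays was not tested. The files name no gene for any row and 0 of the 87 row names matched the gene table, so the array names stand in for genes, no gene role can be attached to them, and the tissue could not be checked against markers of the left ventricle. The number of arrays limits the precision. A second deposited table gave intensities for the same rows, and neither stressed group had an intensity below 0 in it. Of their unstressed counterparts, the reacclimated group had 6 rows below 0 and the 1 mo acclimated group 0. Values of the second table are given beside the log2 ratios as intensities, or as scaled log2 intensities after each sample was centred on its median.

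Over all rows, the reacclimated, heat-stressed group lay above the 1 mo acclimated, heat-stressed group by a median of 0.26 log2 units, and the middle 50% of rows lay between -0.45 and 0.78. At least 2-fold apart (a log2 difference of 1) were 20 rows (23.0% of 87), of which 16 were higher (18.4%) and 4 lower (4.60%) in reacclimated, heat-stressed hearts. A further 25 rows were between 1.5-fold and 2-fold apart, and 42 rows were within 1.5-fold. The medians of both columns differed, at 0.30 in reacclimated, heat-stressed and 0.01 in 1 mo acclimated, heat-stressed hearts. With each group centred on its own median, 15 rows (17.2%) passed 2-fold upward and 14 (16.1%) downward, so the counts at this limit were then nearly even. The largest centred differences were still upward, 2.91 in A014 and 2.88 in R242, against -1.88 in R590 and -1.74 in A059 downward. By scaled intensity 9 rows (10.3%) were at least 2-fold higher and 22 (25.3%) lower, and by intensity without scaling 19 were higher and 18 lower. The largest differences by scaled intensity were downward, -4.02 in A038 and -3.95 in R332, against 3.19 in A073 and 3.12 in A014 upward. Rows A038 and R332 were dim in reacclimated, heat-stressed hearts, with intensities of 283.1 and 190.8.

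The rows furthest apart shared a low value in the 1 mo acclimated, heat-stressed group. Row A014 was listed at 1.40 in reacclimated, heat-stressed hearts and at -1.80 in 1 mo acclimated, heat-stressed hearts, a 9.18-fold difference (log2 3.20). The 6 other treated groups of A014 lay between -0.98 and 1.76, so the 1 mo acclimated, heat-stressed value was the lowest of all. Its intensities were 4930 against 391.9, and the scaled intensities differed by 3.12. Row R242 had the next largest difference, 8.99-fold, with 0.73 in reacclimated, heat-stressed and -2.44 in 1 mo acclimated, heat-stressed hearts. Its other treated groups lay between -1.93 and 0.84, the low end being the 2 d acclimated, heat-stressed group. Both tables placed R242 higher after reacclimation, with intensities of 6103 against 701.4.

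Rows R105, R437 and A012 showed the same arrangement. Row R105 was listed at 1.49 against -1.55 (log2 difference 3.03), with the lowest intensity of its column, 380.0, in 1 mo acclimated, heat-stressed hearts and 1551 in reacclimated, heat-stressed hearts. The control of R105 was listed at -6.64 (intensity 66.8), where 0 would be the ratio to itself. This cancels in the difference, but the sign of the R105 log2 ratios does not show whether a group lay above or below the control. Row R437 was listed at 0.08 in reacclimated, heat-stressed and -2.35 in 1 mo acclimated, heat-stressed hearts, a difference of 2.43. This size was not seen by scaled intensity, where R437 differed by 0.46 and remained among the brighter rows in both groups (13658 against 6837). Row A012 was listed at 1.15 in reacclimated, heat-stressed hearts, the highest of its 8 treated groups, against -1.27 in 1 mo acclimated, heat-stressed hearts, the lowest. By intensity in 1 mo acclimated, heat-stressed hearts, A014, R242, R105 and A012 ranked 2, 5, 1 and 6 from the lowest. Values this low leave the size of these differences uncertain. Of the 16 higher rows, 7 had their lowest treated value in 1 mo acclimated, heat-stressed hearts and 5 their highest in reacclimated, heat-stressed hearts, against 14 and 10 of all 87 rows. Because these same values make the difference, those counts describe where it lay and are no separate result.

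**Figure D1:**
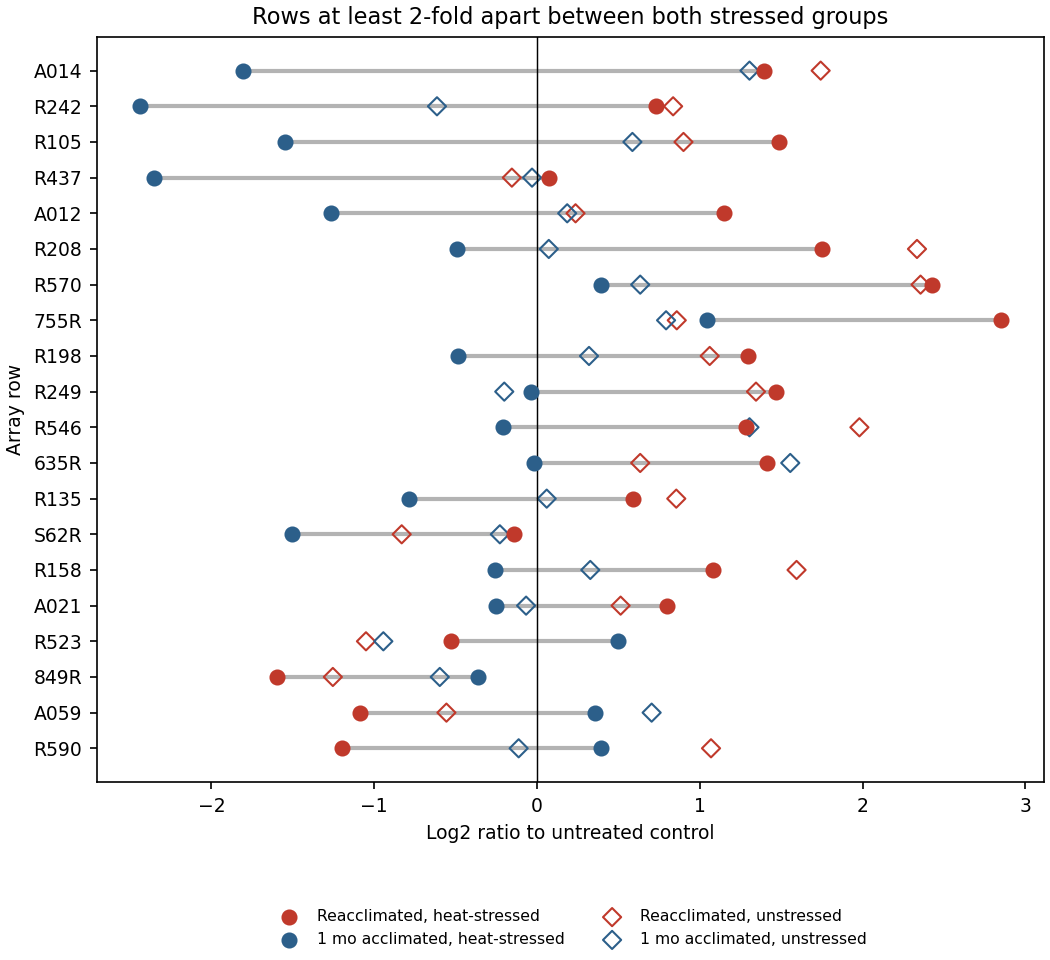
Log2 ratio to the untreated control (x axis) of the 20 array rows at least 2-fold apart, with filled circles for the reacclimated, heat-stressed (red) and the 1 mo acclimated, heat-stressed group (blue) and open diamonds for their unstressed counterparts. Each symbol is 1 deposited value, so there are no error bars. In A014, R105, R437 and A012 both diamonds lie near the red circle or between both circles, away from the blue circle.

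In other rows the log2 ratios already held the gap before heat stress, and the second table often placed it elsewhere. Row R208 was listed at 1.75 in reacclimated, heat-stressed and -0.49 in 1 mo acclimated, heat-stressed hearts (4.72-fold), and without stress at 2.33 in reacclimated and 0.07 in 1 mo acclimated hearts. The difference of R208 was thus 2.24 with stress and 2.26 without, and its scaled intensities differed by 0.24 with stress and 2.12 without. Row R570 was listed at 2.42 in reacclimated, heat-stressed and 0.39 in 1 mo acclimated, heat-stressed hearts, and at 2.36 and 0.63 in their unstressed counterparts. Its deacclimated value, 2.82, was higher still, while the heat-stressed, not acclimated, the 2 d acclimated and the 2 d acclimated, heat-stressed groups stood at 0.39, 0.32 and 0.40. By scaled intensity R570 differed by 2.18 between both stressed groups but by 0.48 between the unstressed groups, so that the second table put most of its gap in the response to stress (1.70, against 0.31 by log2 ratio).

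Row R249 was likewise about as far apart before stress. It was listed at 1.47 in reacclimated, heat-stressed and -0.04 in 1 mo acclimated, heat-stressed hearts, a difference of 1.51, and differed by 1.55 without stress. Its scaled intensities differed by 0.88 with stress, under 2-fold, and by 1.16 without. Row R198 differed by 1.78 with stress and 0.74 without, but by 0.06 in scaled intensity, so its size rests on the log2 table. Row 755R was placed differently by both tables. It was listed at 2.85 in reacclimated, heat-stressed hearts and 1.05 in 1 mo acclimated, heat-stressed hearts, and at 0.86 and 0.79 in their unstressed counterparts. By log2 ratio, heat stress thus went with a difference of 1.99 in reacclimated and 0.25 in 1 mo acclimated hearts. By scaled intensity the gap of 755R was 1.76 with stress and already 1.96 without, with unstressed intensities of 3858 in reacclimated and 872.5 in 1 mo acclimated hearts, and the responses differed by -0.19. By log2 ratio 755R was the only one of the 16 higher rows at least 2-fold above its unstressed counterpart after reacclimation (4.60% of all rows were).

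**Figure D2:**
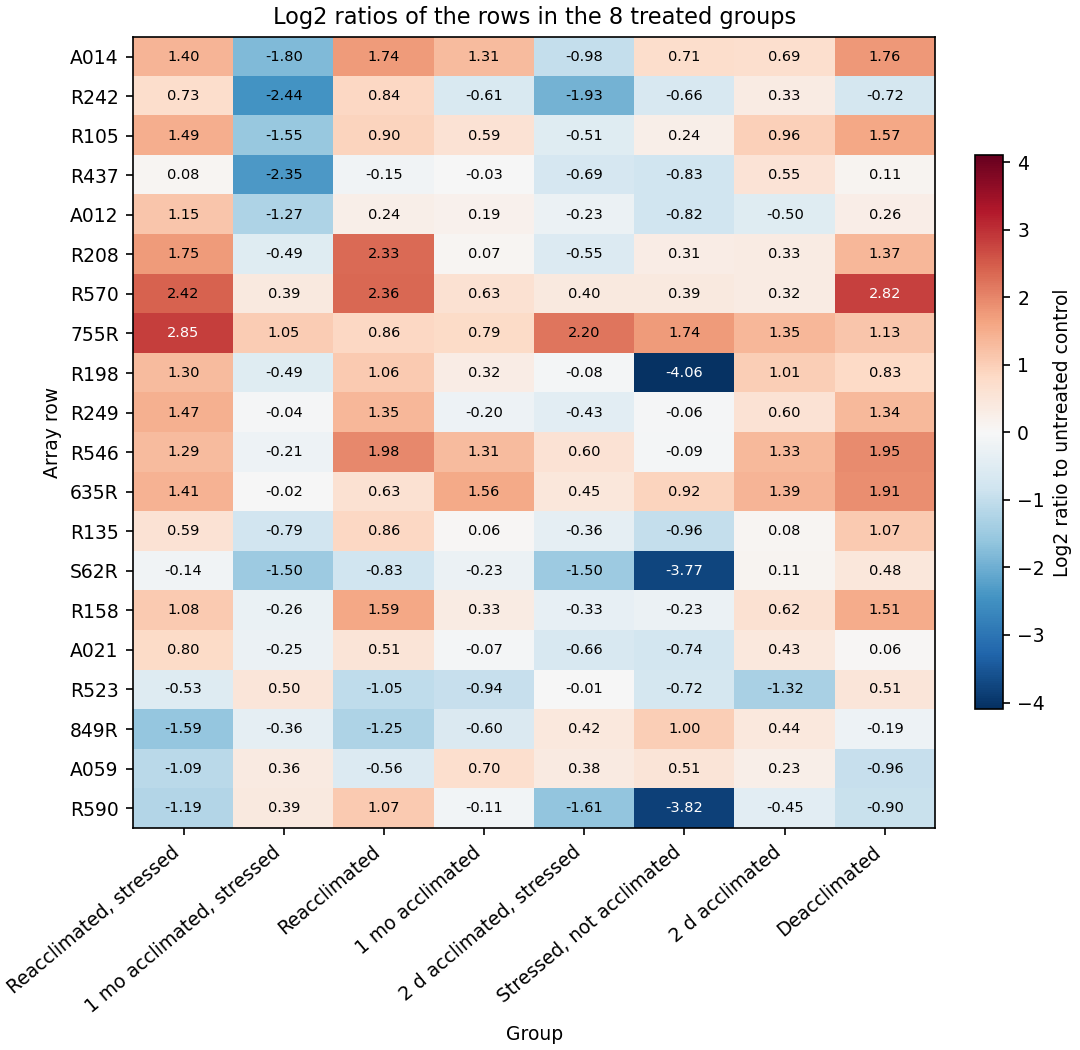
Log2 ratio to the untreated control in the 8 treated groups (columns) for the 20 rows (lines) at least 2-fold apart between both stressed groups. Cells are coloured from blue (below 0) to red (above 0), with the value printed in each cell. The second column, 1 mo acclimated, heat-stressed hearts, holds the lowest cell of its line in A014, R242, R105, R437 and A012, and R570 is above 2 in the reacclimated columns and in the deacclimated column alone.

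Only 4 rows were at least 2-fold lower in reacclimated, heat-stressed hearts, and their median intensities in the 7 other samples were low, between 275.4 and 980.7 against 3318 for all rows. Row R590 was listed at -1.19 in reacclimated, heat-stressed and 0.39 in 1 mo acclimated, heat-stressed hearts, a difference of -1.59. It was higher, not lower, before stress, with 1.07 in reacclimated and -0.11 in 1 mo acclimated hearts. Its intensities were close, 2447 in reacclimated, heat-stressed and 2326 in 1 mo acclimated, heat-stressed hearts, and the scaled intensities differed by -0.46. Row A059 was listed at -1.09 against 0.36 (difference -1.45), and its intensity in reacclimated, heat-stressed hearts, 166.0, was the lowest of that column and was shared with 1 other row. Row 849R was listed at -1.59 against -0.36, with an intensity of 175.5 in reacclimated, heat-stressed hearts, next above the 2 rows at 166.0, and 753.7 in 1 mo acclimated, heat-stressed hearts. Values this close to the lowest of a column leave the size of both differences uncertain.

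The last of the 4, R523, lay just inside the limit at -1.03, with -0.53 in reacclimated, heat-stressed and 0.50 in 1 mo acclimated, heat-stressed hearts. Just outside it were A015 and A066, both at -0.97, which pass after centring (-1.27 and -1.26). On the higher side, R158 (1.34) and A021 (1.05) were the last inside the limit, and A073 (0.90) and S67R (0.89) the first outside. By scaled intensity R158 (0.09) and A021 (0.23) were well under 2-fold. Row A073 differed far more by scaled intensity (3.19), with 6848 in reacclimated, heat-stressed and 518.0 in 1 mo acclimated, heat-stressed hearts. The median intensity over the 7 other samples was 4102 for the 16 higher rows and 801.5 for the 4 lower rows, against 3318 for all rows.

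Large differences were found at all levels of intensity in the 7 other samples, which leave out both compared groups. In 1 mo acclimated, heat-stressed hearts themselves, A014, R242, R105 and A012 were among the dimmest rows. Rows were divided into 3 classes of 29 rows by their median intensity in the 7 other samples. The dimmest class held 7 of the 20 rows (3 higher and 4 lower), the middle class 8 and the brightest class 5, the last 13 all higher. The root mean square difference was 1.05 in the dimmest, 1.24 in the middle and 0.87 in the brightest class. Over the 87 rows the size of the difference and the intensity had a Spearman's rho of -0.17, given as a description.

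**Figure D3:**
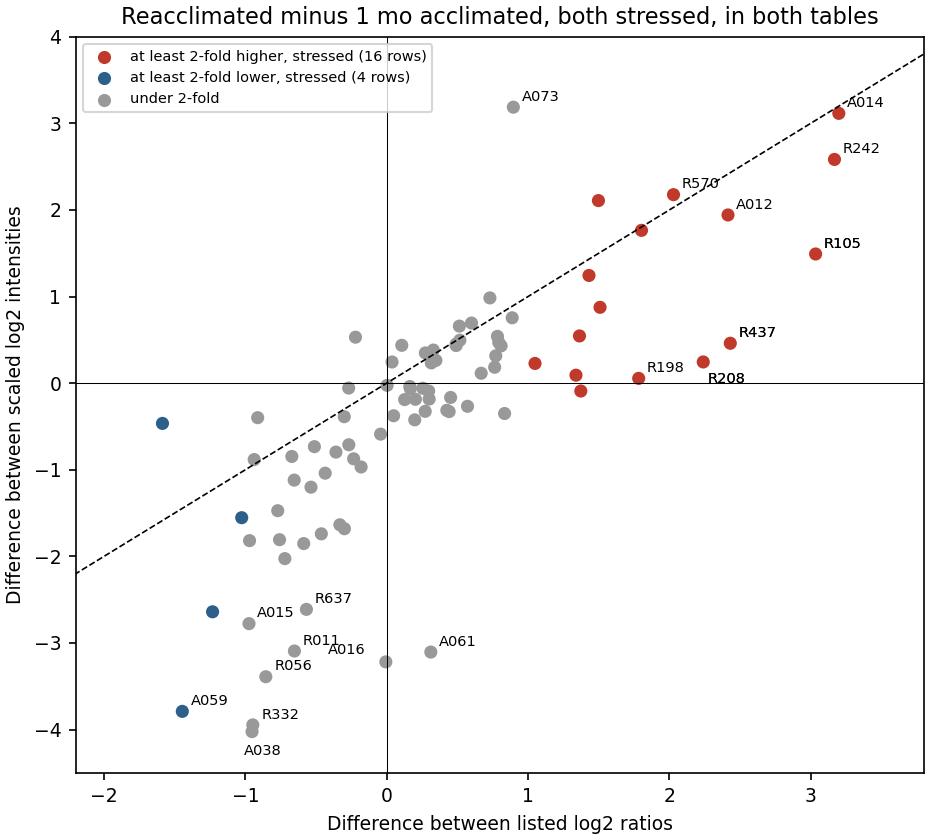
Difference between reacclimated, heat-stressed and 1 mo acclimated, heat-stressed hearts in listed log2 ratios (x axis) and in scaled log2 intensities (y axis), 1 point per row for 87 rows, with the dashed line at equal values. A014, R242 and A012 are past 2-fold in both tables, R437, R208 and R198 only in the log2 ratios, and A073 only in the intensities.

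Both tables were made from the same samples, so their likeness is no independent support. The difference between both stressed groups had the same sign in 68 of 87 rows, with r = 0.77 and rho = 0.85 over rows, as a description. Of the 16 higher rows, 15 were higher by scaled intensity too and 8 by at least 2-fold. Of the 4 lower rows, 4 were lower by scaled intensity and 3 by at least 2-fold. For R590 this sign rests on the scaling, as its intensities without scaling differed by 0.07. The intensities also gave rows a much larger gap than the log2 ratios did, such as A059 (-3.79 against -1.45) and 849R (-2.64 against -1.23). Other rows disagreed in more than size. Row A016 differed by -3.22 in scaled intensity (810.9 against 5199.7) but by -0.01 in log2 ratio. Row A061 differed by -3.11 in scaled intensity and by 0.31, the opposite sign, in log2 ratio, with an intensity of 166.0 in reacclimated, heat-stressed hearts.

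Each difference between both stressed groups is the sum of the difference between their unstressed counterparts and the difference between both responses to heat stress. The root mean square over rows was 1.06 for the stressed difference, 0.93 for the unstressed difference and 1.09 for the difference of the responses. The unstressed groups were at least 2-fold apart in 25 rows, 17 higher (19.5%) and 8 lower (9.20%) in reacclimated hearts, and after centring 14 (16.1%) and 12 (13.8%). In either direction that was 28.7% of rows. The responses differed by at least 2-fold in 25 rows, 14 higher (16.1%) and 11 lower (12.6%) in reacclimated hearts, again 28.7% in all.

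Stressed and unstressed differences come from separate samples and use no control value. Over the 87 rows they had r = 0.37 and rho = 0.44, given as a description, and they had the same sign in 58 rows. At least 2-fold higher in both were 5 rows, R242, R208, R570, R249 and R158, which are 5 of the 16 higher with stress and 5 of the 17 higher without. By scaled intensity 0 of these 5 rows were at least 2-fold higher in both, and R242 was 2.58 with stress and -0.19 without. Of all rows, 19.5% were that much higher without stress. At least 2-fold lower in both was 1 row, A059, and R590 was the 1 row at least 2-fold apart in opposite directions. Without stress, the intensity of A059 in reacclimated hearts was below 0 (-645.3). Its unstressed difference (-1.26) therefore had no scaled intensity, and its size is uncertain. The other 12 rows that were at least 2-fold higher in unstressed reacclimated hearts were under 2-fold higher, or lower, with stress.

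**Figure D4:**
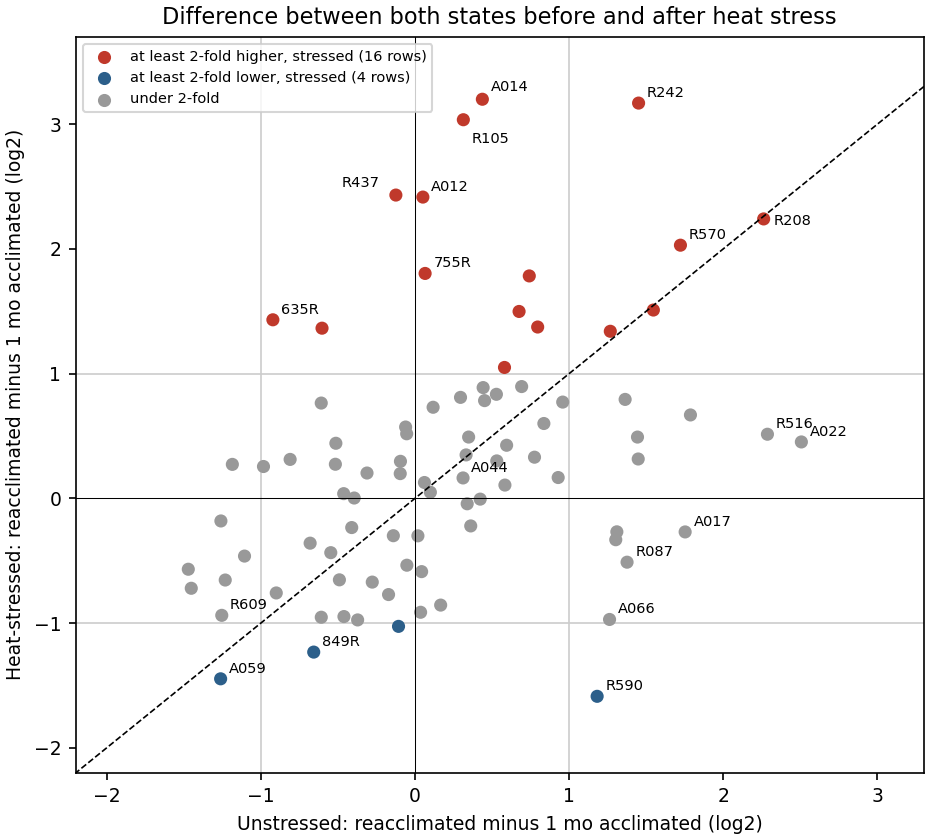
Difference between reacclimated and 1 mo acclimated hearts without heat stress (x axis) and with it (y axis), in log2 units, 1 point per array row for 87 rows, with grey lines at 2-fold and a dashed line at equal differences, all from the log2 ratios. R208, R570 and R249 lie near the dashed line, A014, R105, R437 and A012 far above it near 0 on the x axis, and A022 and R516 far below it.

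Among the 16 higher rows the difference of the responses was larger than the unstressed difference in 10, and among all 87 rows in 47 (54.0%), so the count is near that of all rows. The 5 rows with the highest difference of responses were A014 (2.76), R105 (2.72), R437 (2.55), A012 (2.36) and 635R (2.35). By scaled intensity they were 3.50 in A014, 1.15 in R105, 1.01 in R437, 1.77 in A012 and 2.88 in 635R, and rows S62R (3.52) and S11R (3.53), picked after their values were seen, were higher than these. In A014 heat stress went with a difference of -0.35 in reacclimated and -3.11 in 1 mo acclimated hearts. The responses of R437 were 0.23 in reacclimated and -2.32 in 1 mo acclimated hearts. In 635R they were 0.78 in reacclimated and -1.57 in 1 mo acclimated hearts, so that a row lower in reacclimated hearts before stress (-0.92) was higher after it (1.43). By log2 ratio, A014, R105, R437, A012 and 635R were at least 2-fold below their unstressed counterpart in 1 mo acclimated hearts, as were 8 of the 16 higher rows and 19.5% of all rows. The 1 mo acclimated, heat-stressed value enters both counts, so nothing is read from the excess.

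By log2 ratio, most rows with the lowest difference of responses had a smaller gap between both groups under stress than without it. Row A022 was listed at 2.16 in reacclimated, heat-stressed and 1.71 in 1 mo acclimated, heat-stressed hearts, a difference of 0.45. Without stress it stood at 2.20 in reacclimated and -0.30 in 1 mo acclimated hearts. The reacclimated group thus stood before stress near the level that the 1 mo acclimated group had only with stress, and the intensities ran alike, with 14402 and 11123 in the stressed groups and 13606 and 2492 in their counterparts. Row R516, picked here after its values were seen, was arranged in the same way. It was listed at 1.59 in reacclimated, heat-stressed and 1.07 in 1 mo acclimated, heat-stressed hearts, and without stress at 1.78 and -0.50. Deacclimated hearts had 2.20 in A022 and 1.56 in R516, near the reacclimated values.

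Row R087 was also closer with stress than without. It was listed at 0.12 in reacclimated, heat-stressed and 0.63 in 1 mo acclimated, heat-stressed hearts, and without stress at 0.40 and -0.97. In A017 and A066 it was the reacclimated value that was lower with stress. Row A017 was listed at -0.31 in reacclimated, heat-stressed and -0.04 in 1 mo acclimated, heat-stressed hearts, and without stress at 1.76 and 0.01. Row A066 was listed at -0.68 in reacclimated, heat-stressed and 0.29 in 1 mo acclimated, heat-stressed hearts, and without stress at 0.80 and -0.46. By scaled intensity A066 was further apart with stress (-1.82) than without (0.37). Rows R087 (-0.73 with stress, 1.37 without) and A017 (-0.06 and 1.63) were closer with stress by that measure too. The lowest difference of responses was that of R590, -2.77 by log2 ratio and -0.96 by scaled intensity.

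Rows R609 and A044 were singled out for their response to heat stress in earlier results of these data. Row A044 reached nearly the same level in both stressed groups, 2.34 in reacclimated, heat-stressed and 2.18 in 1 mo acclimated, heat-stressed hearts. Its scaled intensities differed by -0.04 between both stressed groups. Its responses by log2 ratio were 2.19 in reacclimated and 2.33 in 1 mo acclimated hearts. By scaled intensity the responses of A044 were not alike, differing by -1.10, and the unstressed groups differed by 1.06 (0.31 by log2 ratio). Row R609 was listed at 1.68 in reacclimated, heat-stressed and 2.62 in 1 mo acclimated, heat-stressed hearts, a difference of -0.94, which passes 2-fold after centring (-1.23). Its intensities were 20776 and 26384, among the brightest of the table. By log2 ratio its responses were 2.08 in reacclimated and 1.76 in 1 mo acclimated hearts, and the unstressed groups stood at -0.40 in reacclimated and 0.86 in 1 mo acclimated hearts. The second table ran the other way without stress, with 6439 in reacclimated and 4073 in 1 mo acclimated hearts (scaled difference 0.47, against -1.25 by log2 ratio), and the responses differed by -1.36 (0.32 by log2 ratio). The control of R609 was listed at -3.32 where 0 would be the ratio to itself, which cancels in these differences.

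Both profiles were last set against the rest of the series by their distance, the root mean square gap in log2 ratio across rows. The reacclimated, heat-stressed profile lay 1.06 from the 1 mo acclimated, heat-stressed profile. It lay 0.78 from the deacclimated and 0.79 from the reacclimated profile, and 1.02 from the 1 mo acclimated, 1.05 from the 2 d acclimated, 1.07 from the 2 d acclimated, heat-stressed, 1.17 from the control and 1.51 from the heat-stressed, not acclimated profile. The reacclimated and deacclimated groups held the nearest value in 22 and 20 rows, and the 1 mo acclimated, heat-stressed group in 9. By scaled intensity the distance was 1.05 to the reacclimated, 1.32 to the deacclimated and 1.51 to the 1 mo acclimated, heat-stressed profile, over 81, 82 and 87 rows. Only the last of these distances includes A059, 849R, R332 and R724, where the scaled gap was large (-3.79, -2.64, -3.95 and -2.03). Rows A061 (-3.11) and A015 (-2.78) are also missing from the distance to the reacclimated profile. These distances therefore cannot be ranked on equal terms.

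The 1 mo acclimated, heat-stressed profile lay 0.79 from the 2 d acclimated, heat-stressed profile, 0.95 from the control and 1.00 from the 1 mo acclimated profile. The 2 d acclimated, heat-stressed group held its nearest value in 24 rows and the reacclimated, heat-stressed group in 8. By scaled intensity that order did not hold, as the distance to the 2 d acclimated, heat-stressed profile was 1.57 over 73 rows, against 1.51 to the reacclimated, heat-stressed and 1.29 to the 1 mo acclimated profile over 87 rows. The nearest by scaled intensity were the heat-stressed, not acclimated (1.23 over 76 rows) and the deacclimated profile (1.26 over 82 rows), the first of which was the furthest by log2 ratio (1.27). Here too the sets of rows differ between the scaled distances, so their order is a description only. Distances from 1 profile share its values, and without replicates no distance can be set against its error.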

How the data were processed

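Total RNA from the left ventricle of individual rats was extracted with Tri-Reagent, pooled, labelled with radioactive dATP and hybridised by a Clontech protocol, per the labels' protocols. The deposited log2 values are geometric means of treatment divided by those of control, normalized, per the series' design text. The deposited intensity values of the second table are on a linear scale, with their scaling not stated per the labels. The method of normalization, any background correction and the selection of rows were not given in the sources used here. Differences were computed per row in Python 3.11.15 with numpy 2.4.6 and pandas 2.3.3 (figures: matplotlib 3.10.9), so that the control cancels. No test was possible with 1 value per group. Counting was tested on simulated data. Intensities above 0 were taken as log2 and centred per sample on the median of the 59 rows that were above 0 throughout. Named rows were the 10 furthest apart in each direction past 2-fold, 2 on each side of the limit, the 5 largest differences of responses in each direction, R609 and A044. The rows, comparisons and alternatives were chosen with earlier results of these data known. A list of left ventricle markers and a list of heat shock genes were not used, as no row had a gene name. The labels give no batch.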

Additional observations from a re-analysis of the deposited data

Results flagged for a closer look

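By log2 ratio, in 6 of the 87 rows heat stress went with differences of at least 1.5-fold in opposite directions in reacclimated and 1 mo acclimated hearts. With 1 value per group the difference between both responses was not tested. Row R105 had 0.59 in reacclimated and -2.14 in 1 mo acclimated hearts (difference 2.72). By intensity without scaling, R105 did not rise in reacclimated hearts, with 1640 without stress and 1551 with it. The other flagged rows kept their listed directions by intensity without scaling. Row A012 had 0.91 in reacclimated and -1.45 in 1 mo acclimated hearts (2.36). Row 635R had 0.78 in reacclimated and -1.57 in 1 mo acclimated hearts (2.35). Row S62R had 0.69 in reacclimated and -1.28 in 1 mo acclimated hearts (1.97), with a low unstressed intensity in reacclimated hearts (209.3). The other two ran the opposite way. Row A066 had -1.49 in reacclimated and 0.75 in 1 mo acclimated hearts (-2.23). Row R520 had -0.62 in reacclimated and 1.01 in 1 mo acclimated hearts (-1.63), with a low unstressed intensity in 1 mo acclimated hearts (209.9).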

How the results depend on the processing

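With 1 sample per group no replicate could be left out, and the cause of the shifts below was not tested. No paired analysis was possible because each group has 1 sample. For both stressed groups (20 rows at least 2-fold apart, 16 higher and 4 lower, root mean square 1.06), centring gave 14 lower and 1.02, scaled intensities 31 rows (9 higher, 22 lower) and 1.51, and unscaled intensities, added after seeing the data, 37 rows with 18 lower and 1.48. Without the 25% of rows of lowest intensity 13 rows were left, 0 of them lower, with 1.03, and without rows whose control was listed away from 0 the root mean square was 1.04. A limit of 1.5-fold gave 45 rows (27 higher, 18 lower) and one of 3-fold 10 rows (9 higher, 1 lower). For the unstressed groups (25 rows, 17 higher and 8 lower) the lower rows numbered 18 by scaled and 16 by unscaled intensity, and 5 without dim rows or without rows with values set apart. The limits of 1.5-fold and 3-fold gave 43 (26 higher, 17 lower) and 6 (6 higher, 0 lower). For the difference of the responses (25 rows, 14 higher and 11 lower), 15 rows (8 higher, 7 lower) were left without dim rows, and unscaled intensities gave 42 with 28 higher. The limits gave 40 (22 higher, 18 lower) and 15 (8 higher, 7 lower). Of the named rows, 17 were past 2-fold between both stressed groups, 12 between the unstressed groups and 13 in the difference of the responses. Under centring 0 of these changed sign. Among those with a scaled intensity, 3 did: R242 (-0.19) and R609 (0.47) between the unstressed groups, and 755R (-0.19) in the difference of the responses.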
